A study of Bos taurus with 9 samples.

Results

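The proteasome genes of the bovine rectum were followed in 9 steers. The members were the genes whose symbols begin with PSMA, PSMB, PSMC, PSMD, PSME, PSMF or PSMG among the 1998 named genes in the readable rows of the study's list of expressed genes. They numbered 29 of the 24616 Ensembl genes in the deposited table, and 5 of them encode inducible subunits while 24 were taken as constitutive. That list was ordered by abundance and only its first rows could be read, so the members were selected for high expression. The RefSeq annotation ARS-UCD2.0 holds 48 proteasome genes with such symbols. All 29 members were among them, and the other 19, such as PSMA2, PSMC4 and PSME3, were not analysed here.

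Whole rectal tissue came from 5 super-shedders (SS), steers that shed E. coli O157 above the study's threshold for super-shedding, and from 4 non-shedders (NS), pen-mates that were negative for it. All were British × Continental feedlot steers on a barley-based finishing diet, with no experimental infection and no treatment, and no source used here gives their ages. From each steer 2 biopsies were taken at slaughter 3 to 5 cm proximal to the junction of rectum and anus, days after the SS had been identified, and they gave 1 RNA-Seq library per steer. The NS were steers 108, 152, 165 and 242, and the SS were steers 274, 287, 294, 299 and 310.

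The proteasome is the protease that degrades ubiquitin-tagged proteins in the cytosol and nucleus. Its barrel-shaped core, the 20S particle, is built of outer alpha rings and inner beta rings, and the regulatory 19S particle on its ends recognises, unfolds and feeds in the substrate. Interferon gamma and other inflammatory signals induce the catalytic subunits PSMB8, PSMB9 and PSMB10, which replace the constitutive PSMB5, PSMB6 and PSMB7 in newly built cores to form the immunoproteasome, and the PA28 activator made of PSME1 and PSME2. Many peptides that MHC class I molecules present on the cell surface are cut by these forms, which are abundant in leukocytes and can be induced in gut epithelium.

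Values are given in CPM, a gene's share of the reads on genes in its library scaled to the same total in every library, so they can be compared between steers for 1 gene but not between genes, which differ in length. The libraries held 5412523 (steer 274) to 12278503 (steer 108) reads on genes. Every member had a count in every library, the lowest being the 30 reads of PSMB9 in steer 294, and all 29 passed the filter on low values that left 15410 genes for testing. The study called its samples rectal tissue, and no marker of epithelium, smooth muscle, fibroblasts, leukocytes, B cells or macrophages that was examined was at 0 in any library. However, the mix of tissues differed widely between steers. The summed CPM of 15 epithelial markers was 2390 to 31498 in NS and 233 to 32403 in SS, with steers 242 (2390), 274 (2667) and 294 (233) far below the others, and that of 11 smooth muscle markers ran from 467 in steer 274 to 58314 in steer 294. In such bulk tissue, fewer cells of a type and less RNA per cell cannot be told apart.

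The inducible subunits were the members that differed most between steers. PSMB8 (ENSBTAG00000003039), the inducible chymotrypsin-like subunit, was at 163, 160, 99.0 and 223 CPM in NS 108, 152, 165 and 242, and at 57.5, 196, 17.2, 125 and 172 CPM in SS 274, 287, 294, 299 and 310. Steers 294 and 274 lay below every NS, while the other 3 SS lay within the NS range. NS averaged 161 ± 50.5 CPM (SD, n = 4), and SS averaged 113 ± 75.3 CPM (SD, n = 5).

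PSMB9 (ENSBTAG00000008954), the inducible caspase-like subunit, was at 35.3, 34.8, 26.2 and 67.1 CPM in the same NS, against 15.5, 56.4, 4.00, 32.5 and 37.8 CPM in the same SS. The 30 reads behind the lowest value gave an exact 95% binomial interval of 2.70 to 5.72 CPM, for counting error only, which did not reach the next lowest steer, 274, at 12.4 to 19.2 CPM. The order of the 9 steers was the same for PSMB8 and PSMB9, from steer 242 at the top to 274 and 294 at the bottom. PSMB10 (ENSBTAG00000018040), the inducible trypsin-like subunit, was at 53.3, 57.6, 40.9 and 63.6 CPM in NS, against 32.3, 69.4, 9.21, 54.4 and 62.3 CPM in SS. Here too steers 294 and 274 were lowest and below every NS, while steer 287 was highest.

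PSME1 (ENSBTAG00000021395), the PA28 alpha subunit, was at 155, 179, 130 and 164 CPM in NS, against 56.9, 163, 48.4, 136 and 194 CPM in SS. PSME2 (ENSBTAG00000005814), the PA28 beta subunit, was at 128, 138, 96.8 and 98.8 CPM in NS, compared with 53.9, 155, 30.2, 109 and 151 CPM in SS. The highest steer was an SS for each (310 for PSME1 and 287 for PSME2) and the lowest was steer 294, followed by 274. For all 5 inducible genes, therefore, the same 2 SS held the lowest values and the other 3 SS overlapped with NS. The heat map of members by steer shows these genes as the strongest departures from the mean.

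**Figure D1:**
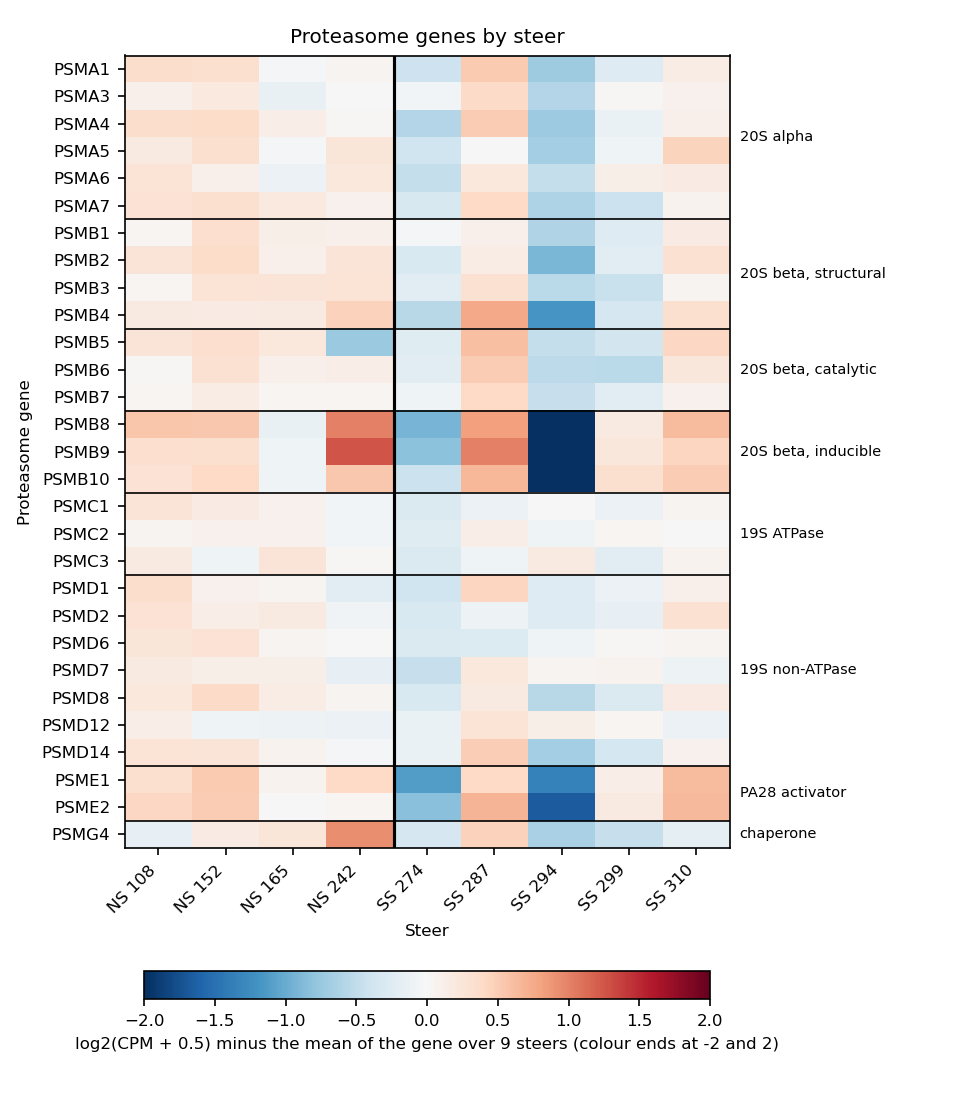
Heat map of 29 proteasome genes (rows, grouped by their place in the complex) in 9 steers (columns, NS left and SS right of the line); colour is log2(CPM + 0.5) minus the mean of that gene over the 9 steers, with the colour scale ending at -2 and 2. The 3 inducible catalytic subunits are darkest blue in steer 294, with a median deviation of -2.65, and most 19S genes are pale in all steers.

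Between SS and NS, no member passed the test. The differences were fitted with limma on log2(CPM + 0.5) across all 15410 genes, and genes with a Benjamini-Hochberg adjusted p below 0.05 and an absolute log2 difference above 1 were called. Of the 29 members 0 were called, with adjusted p from 0.928 to 0.989 (limma), and 0.0% of all tested genes were called. edgeR and DESeq2, run on the recovered counts, also called 0 members, while they called 0 and 19 of all tested genes. At an unadjusted p below 0.05, 0 members were lower and 0 higher in SS, against 3.6% and 0.357% of all tested genes. With steer 287 left out, 7 members, all lower, passed this unadjusted level, beside 7.68% of all genes tested, counting both directions. With steer 310 left out, 4 members, all lower, passed it, beside 5.9% counted in the same way. In 0 members did every SS lie below every NS, which was the case in 2.1% of all tested genes, and in 0 did every SS lie above every NS, against 0.162%. The exact permutation test, whose smallest possible p with 9 steers is 0.0159, gave p of 0.0635 or more for every member.

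Among the inducible genes, PSMB8 had the largest log2 difference, -0.88 ± 0.66 (SE) in SS relative to NS, with a 95% interval of -2.35 to 0.60 (limma, adjusted p = 0.929; exact permutation test, two-sided, p = 0.317). PSMB9 differed by -0.82 ± 0.67, PSMB10 by -0.51 ± 0.53, PSME1 by -0.59 ± 0.42 and PSME2 by -0.44 ± 0.47 on the same scale. Each of the 5 intervals included 0, and each reached down to -1.49 or lower. The median over the 5 genes was -0.59, against -0.25 over the 24 constitutive genes and -0.13 over all tested genes. This order depended on the fit. With sample quality weights the inducible median was -0.06 and the constitutive median -0.23, so the inducible minus the constitutive median went from -0.34 to 0.16. With edgeR the medians were -0.29 and -0.10, and with DESeq2 they were -0.27 and -0.07. Leaving out steer 294 alone brought the inducible minus the constitutive median to -0.07, and the log2 difference to -0.31 for PSMB8, -0.25 for PSMB9, -0.02 for PSMB10, -0.32 for PSME1 and -0.07 for PSME2.

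The small shift of the members was nearly all in one direction. The log2 difference was below 0 in 28 of 29 members, PSMD12 at 0.08 being the exception, but it was also below 0 in 64.8% of all tested genes. After median-of-ratios scaling of the libraries, which brought the median of all genes from -0.13 to 0.01, 22 of 29 members and 48.9% of all tested genes were below 0. With steers 274 and 294 left out, a step chosen after the values were seen, the inducible median was 0.10 and the constitutive median -0.06, and 16 of 29 members were below 0. All 5 inducible genes were then above 0, at 0.06 for PSMB8, 0.10 for PSMB9, 0.21 for PSMB10, 0.06 for PSME1 and 0.26 for PSME2. These 2 steers had the lowest values of the inducible genes, so a higher SS mean without them was fixed by the choice, and these values are a description.

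**Figure D2:**
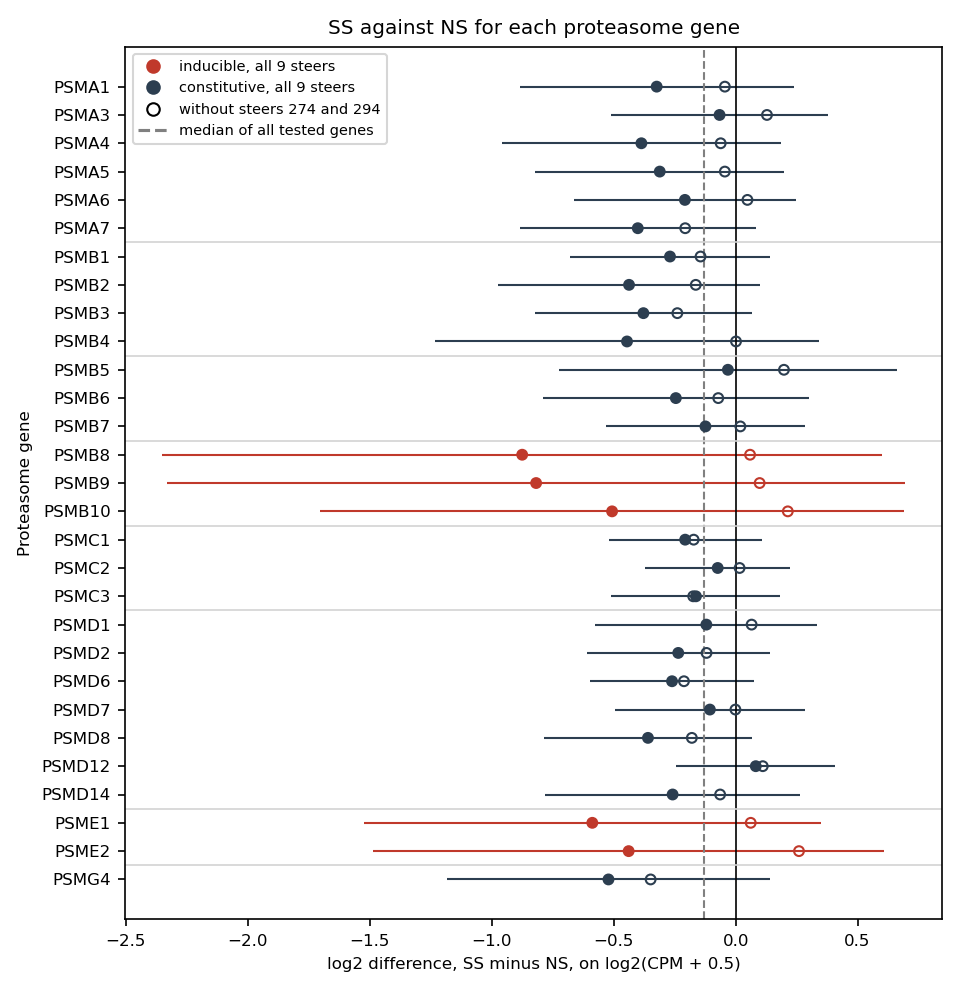
Log2 difference between SS (n = 5) and NS (n = 4) for each proteasome gene, on log2(CPM + 0.5); filled points are limma estimates over 9 steers with 95% intervals, open points are estimates without steers 274 and 294, and the dashed line is the median of all tested genes. All intervals cross 0, and the open points of the 5 inducible genes lie between 0.06 and 0.26.

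The alpha subunits form the outer rings of the core and its gate. Their 6 genes had log2 differences from -0.40 (PSMA7) to -0.07 (PSMA3), with a median of -0.32. PSMA7 (ENSBTAG00000005127) was at 161, 164, 152 and 141 CPM in NS, against 106, 175, 86.0, 98.4 and 138 CPM in SS. Thus 4 of 5 SS lay below every NS, but steer 287 was the highest of all (log2 difference -0.40 ± 0.22 (SE); limma, adjusted p = 0.928). The ratio of the highest to the lowest steer ran from 1.69 (PSMA6) to 2.37 (PSMA1 and PSMA4) in this ring.

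The 4 structural beta subunits, PSMB1, PSMB2, PSMB3 and PSMB4, fill the inner rings without an active site. Their log2 differences ran from -0.45 to -0.27 with a median of -0.41. PSMB4 (ENSBTAG00000021288) varied most of all constitutive members. It was at 98.6, 98.3, 99.5 and 120 CPM in NS, against 59.1, 148, 38.3, 69.4 and 109 CPM in SS. Its ratio of highest to lowest, 3.87, was close to the 4.00 of PSME1, and steers 287 and 294 held the 2 ends. PSMB3 had the lowest unadjusted p of the members, 0.086 (limma, adjusted p = 0.928), at 53.3 to 62.7 CPM in NS and 35.6 to 64.1 CPM in SS, with 3 of 5 SS below the lowest NS.

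The constitutive catalytic subunits are the ones that the inducible subunits replace. PSMB5 (ENSBTAG00000012726), the constitutive chymotrypsin-like subunit, was at 64.6, 68.4, 62.2 and 32.0 CPM in NS, against 45.5, 81.8, 38.6, 41.8 and 71.6 CPM in SS. The lowest steer was NS 242, which had the highest PSMB8 and PSMB9, and the groups overlapped, with steers 287 and 310 above every NS (log2 difference -0.03 ± 0.31). RefSeq places PSMB5 and PSMB11 with 314 bases in common, on another build than the one the reads were mapped to. Whether this touched the PSMB5 counts was not tested. PSMB6 (-0.25 ± 0.24), the caspase-like subunit, and PSMB7 (-0.12 ± 0.18), the trypsin-like subunit, had ratios of highest to lowest of 2.10 and 1.81.

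Steers were then compared by the ratio of each inducible subunit to the constitutive subunit it replaces. A plain ratio does not depend on the scaling of the library. The log2 ratios depend on it only through the added 0.5 CPM, most at low values such as PSMB9 in steer 294. CPM are not corrected for gene length, so the ratios are read between steers only. The log2 ratio of PSMB8 to PSMB5 was 1.33, 1.22, 0.67 and 2.78 in NS 108, 152, 165 and 242. It was 0.33, 1.25, -1.14, 1.57 and 1.26 in SS 274, 287, 294, 299 and 310. Steer 242 was highest and 294 lowest, 15.6-fold apart in CPM, and 3 of 5 SS lay within the NS range.

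For PSMB9 to PSMB6 the log2 ratio was -0.17, -0.48, -0.67 and 0.64 in NS and -1.10, 0.01, -2.62, 0.28 and -0.28 in SS. For PSMB10 to PSMB7 it was -0.49, -0.50, -0.88 and -0.24 in NS and -1.09, -0.47, -2.47, -0.22 and -0.31 in SS. Steers 274 and 294 were the only ones below every NS in all 3 pairs, and steer 242 was the highest in 2 of them. The mean log2 ratio in SS minus that in NS was -0.84 for PSMB8 to PSMB5 (exact permutation test, two-sided, p = 0.286), -0.57 for PSMB9 to PSMB6 (exact permutation p = 0.476) and -0.38 for PSMB10 to PSMB7 (exact permutation p = 0.587). None of the 3 pairs tested passed even before adjustment. Without steer 294 alone the differences were -0.39, -0.10 and 0.0059, and without steers 274 and 294 they were -0.14, 0.17 and 0.19.

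**Figure D3:**
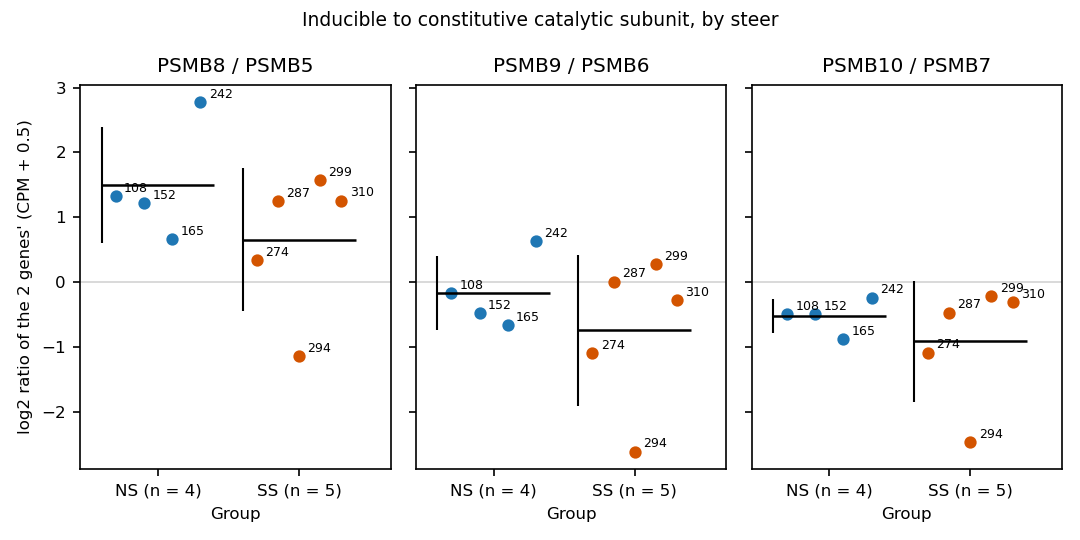
Log2 ratio of inducible to constitutive catalytic subunit on (CPM + 0.5) for 3 pairs in NS (n = 4) and SS (n = 5); each point is 1 steer with its number, horizontal lines are group means and vertical lines are 1 SD to each side. Steers 274 and 294 lie lowest in each pair, and the other 3 SS lie among or just above the NS.

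The 10 genes of the 19S particle had the smallest median spread over steers of the parts compared, although PSMD14 and PSMD8 varied more than some core genes such as PSMB7. PSMC2 (ENSBTAG00000046712), an ATPase of the ring that unfolds substrates, was at 130, 133, 133 and 120 CPM in NS, against 106, 137, 118, 129 and 126 CPM in SS. Its highest value was 1.30 times its lowest, and 0.344% of all tested genes had a smaller SD over the 9 steers. The members were selected for high expression, and the tested genes were not matched to them in level. PSMC1 and PSMC3, of the same ring, ranged 1.47-fold and 1.46-fold. PSMC1 was at 66.6 to 75.1 CPM in 4 of the SS and at 58.8 CPM in steer 274, against 69.8 to 86.2 CPM in NS (log2 difference -0.21 ± 0.14; exact permutation test, two-sided, p = 0.0635).

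Of the 7 non-ATPase genes of the 19S particle, 6 had a log2 difference below 0. PSMD12, a lid subunit, was at 73.9 to 88.1 CPM in NS, against 73.4 to 97.7 CPM in SS (log2 difference 0.08 ± 0.15). PSMD2 (ENSBTAG00000005660), a scaffold of the base, was at 219, 197, 202 and 170 CPM in NS, against 145, 167, 150, 159 and 222 CPM in SS. Here 4 of 5 SS lay below every NS while steer 310 was highest of all (-0.24 ± 0.17). PSMD14, the lid enzyme that removes ubiquitin from the substrate, had the widest range of the 10 19S genes, 2.27-fold, and together with PSMD8 was lowest in steer 294. The other 8 genes of the particle were lowest in steer 274. PSMD1, PSMD6 and PSMD7 had log2 differences of -0.12, -0.26 and -0.11.

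PSMG4, which helps to assemble the core, had 75 reads or more in every library. It was at 15.6, 19.8, 20.8 and 33.9 CPM in NS, against 13.9, 24.6, 11.1, 12.7 and 15.4 CPM in SS. Steer 242 was highest, and 4 of 5 SS lay below every NS (log2 difference -0.52 ± 0.30; limma, adjusted p = 0.928). It had the most negative difference of the constitutive genes and a ratio of highest to lowest of 3.06. This rank rested on steer 242: without it the difference was -0.31, and PSMA4 was the most negative constitutive gene at -0.45.

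The spread over steers separated the parts of the complex. The SD of log2(CPM + 0.5) over 9 steers was 0.72 to 1.16 in the 5 inducible genes (median 0.89) and 0.12 to 0.59 in the 24 constitutive genes (median 0.30), while its median over all tested genes was 0.50. The lowest inducible SD was thus above the highest constitutive SD. The tested genes were not matched to the members in expression level. Within the constitutive genes the median was 0.36 for the 13 core genes and 0.21 for the 10 genes of the 19S particle. After median-of-ratios scaling the medians were 0.83 for the inducible genes, 0.29 for the constitutive genes and 0.49 for all tested genes.

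Without steers 274 and 294, however, the SD of the inducible genes was 0.20 to 0.47 (median 0.28) and overlapped that of the constitutive genes (0.06 to 0.48, median 0.20), and the median over all tested genes was 0.41. PSMB9 and PSMB8 then still varied 2.56-fold and 2.25-fold, but PSME1 and PSME2 varied only 1.49-fold and 1.60-fold. PSMC2 varied 1.14-fold among these 7 steers. Since these 2 steers were the lowest for every inducible gene, a smaller spread without them was fixed by the choice. Members also share the same 9 libraries, so these values are a description.

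**Figure D4:**
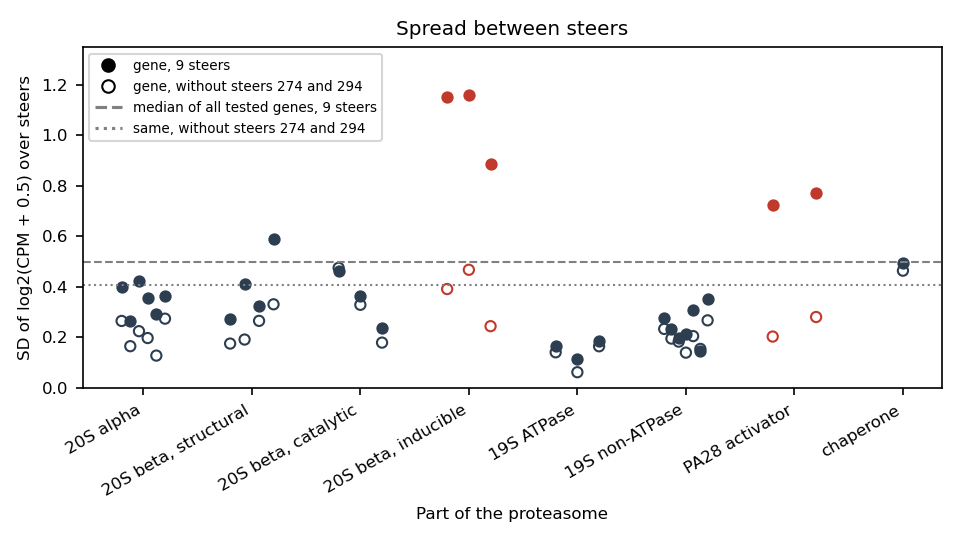
SD of log2(CPM + 0.5) over steers for each proteasome gene, by its place in the complex; filled points use 9 steers, open points leave out steers 274 and 294, and lines mark the median of all tested genes (dashed 0.50 for 9 steers, dotted 0.41 for 7). Filled red points (inducible genes) lie at 0.72 to 1.16, above all others, and the open ones fall to 0.20 to 0.47.

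The steers differed in which part of the complex was low. In steer 294 the median deviation from the gene means was -2.18 for the inducible genes, -0.59 for the 13 constitutive core genes and -0.09 for the 19S genes, all on the log2 scale. In steer 274 it was -0.83, -0.30 and -0.29, so core and 19S genes were lower by a like amount. Over all tested genes the same median was -0.15 in steer 294 and -0.15 in steer 274. The median of the 19S genes in steer 294 thus lay above that of its library, although PSMD14, PSMD8, PSMD1 and PSMD2 lay below -0.15. Steer 294 held the lowest value of 18 of 29 members, against 29.6% of all tested genes. Among the 18 were all 5 inducible genes, PSMG4, 10 of the 13 constitutive core genes and 2 of the 10 19S genes. Steer 274 held the lowest value of 9 members, against 16.8% of all tested genes. Steer 287 held the highest value of 16 members, against 8.29% of all tested genes. The inducible minus the constitutive median was 0.14, 0.28, -0.18 and 0.51 in NS and -0.53, 0.39, -1.66, 0.39 and 0.54 in SS, and 3 of the SS were again within or just above the NS range.

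The genes around the proteasome were read from lists of the pathways it belongs to. Class I antigen presentation had 9 genes tested, of which 0 were called and 8 had a log2 difference below 0, with a median of -0.22, where 64.8% of all tested genes were below 0 with a median of -0.13. The same 2 values stand behind the counts of the lists that follow. After median-of-ratios scaling the median of the class I list was -0.07. B2M, the light chain of class I molecules, was at 3340, 4529, 2729 and 3739 CPM in NS, against 2212, 4655, 603, 2573 and 4478 CPM in SS (-0.59 ± 0.57). TAP1, a subunit of the pump that carries peptides into the endoplasmic reticulum, lies between PSMB8 and PSMB9 in RefSeq. It was at 170, 160, 97.7 and 244 CPM in NS, against 90.5, 171, 30.2, 167 and 175 CPM in SS (-0.58 ± 0.52). Like its neighbours it was highest in steer 242 and lowest in 294, 274 and 165. HLA-B, a class I heavy chain named so in the study's list, was at 27.6 CPM in steer 165 and at 1073 CPM in steer 287. Class I genes are polymorphic and close to one another in sequence, so its level is uncertain.

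Of 11 interferon response genes 0 were called and 10 had a log2 difference below 0 (median -0.42, and -0.28 after median-of-ratios scaling). Steer 294 was lowest for all 11, as it was for 29.6% of all tested genes. The largest differences were -1.28 ± 0.78 for UBD, a ubiquitin-like modifier, -1.05 ± 0.80 for IFITM1, an antiviral membrane protein, and -0.78 ± 0.45 for IFI30, a lysosomal thiol reductase. The median deviation of the 11 genes was 0.01 in steer 274, which was next to lowest for every inducible proteasome gene, and -1.38 in steer 294.

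All 4 genes of the interferon gamma receptor and its kinases (IFNGR1, IFNGR2, JAK1 and JAK2) had log2 differences below 0, from -0.42 for JAK1 to -0.02 for JAK2, and 0 were called. Their median was -0.20, and -0.05 after median-of-ratios scaling. In steer 274 their median deviation was 0.25. Of 21 genes for ubiquitin and its conjugation 0 were called and 15 were below 0, with a median of -0.14, which was 0.006 after the same scaling. UBE2J1, a ubiquitin-conjugating enzyme of the endoplasmic reticulum, had a difference of -0.50 ± 0.42 and was lowest in steers 294 (22.2 CPM) and 274 (23.3 CPM), against 59.4 to 79.4 CPM in the other 7. Of 9 helpers and shuttles of the proteasome 0 were called and 7 were below 0, with a median of -0.05, which was 0.10 after scaling. POMP, the maturation factor of the core, had a difference of -0.32 ± 0.22. UBQLN1, a shuttle that brings ubiquitinated proteins to the proteasome, was at 102 to 118 CPM in all 9 steers.

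Other cell types moved with the inducible genes in some steers and not in others. The summed CPM of 9 leukocyte markers was 1157 to 5157 in NS and 292 to 1076 in SS, with all 9 log2 differences below 0, against 64.8% of all tested genes, and 5 of 9 lower at an unadjusted p below 0.05, against 3.6%. The lowest sum was in steer 294 and the highest in 242. The 4 B cell markers, which the study chose on these samples, summed to 55.9 to 488 CPM in NS and 3.87 to 36.0 CPM in SS. Steers 287, 299 and 310 had leukocyte sums of 1076, 1053 and 965 CPM, all below every NS, and inducible proteasome genes within or near the NS range. Steer 274, with 945 CPM, was close to these 3 in leukocyte markers and had the second lowest inducible genes.

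The 15 epithelial markers all had log2 differences below 0, which 64.8% of all tested genes had too, with a median of -1.24. Without steers 274 and 294 this median was 0.57, but these 2 steers had the lowest epithelial sums of the SS. A higher median without them was thus fixed by the choice. Steer 242 had a summed epithelial level of 2390 CPM, close to the 2667 CPM of steer 274, and the highest PSMB8 and PSMB9 of all. The 10 fibroblast markers summed to 24977 CPM in steer 274 and 19467 CPM in steer 294 and to 2507 to 8311 CPM in the other 7, so these 2 steers also stood apart there. The 11 smooth muscle markers were at opposite ends in them (467 and 58314 CPM). The 4 macrophage markers summed to 246 to 854 CPM in NS and 210 to 1113 CPM in SS, with the highest sum in steer 274 and the lowest in 294. The part of these cell types in the proteasome values was not tested.

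**Figure D5:**
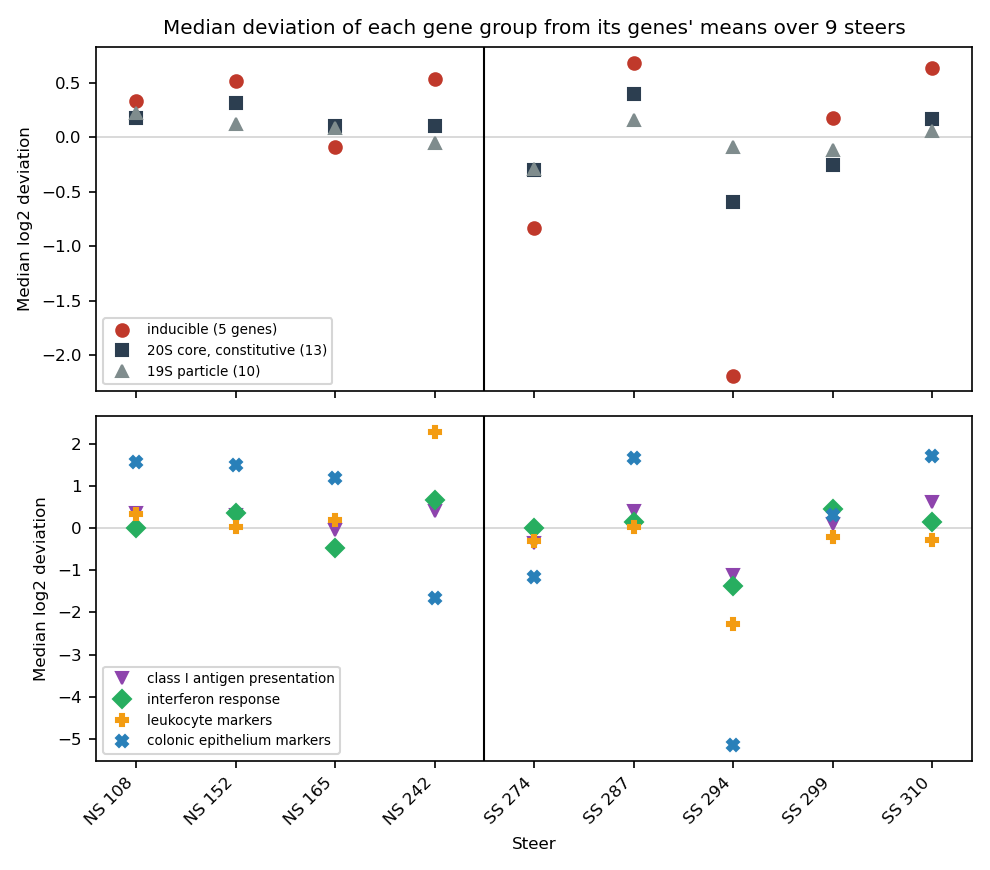
Median log2 deviation from the means of the genes over 9 steers (vertical axis) for each steer (horizontal axis, NS left and SS right of the line); the upper panel shows inducible, constitutive core and 19S proteasome genes, and the lower panel shows lists of class I presentation, interferon response, leukocyte and epithelial genes. Steer 294 is below 0 in every group shown, at -2.18 for inducible genes and -1.38 for interferon response, while steer 274 is at -0.83 and 0.01.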

How the data were processed

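RNA-Seq of whole rectal tissue from 5 SS and 4 NS was used, with 1 library per steer. Per the labels and the study's methods, rRNA-depleted stranded libraries were mapped to UMD3.1 with TopHat2. The submitters' processing notes also name HTSeq and edgeR, without roles or versions, and no source used here states the strand setting of the counting. The authors deposited CPM per Ensembl gene. In each library 100% of these CPM were whole multiples of 1 read within 0.01 reads, so counts were recovered (5412523 to 12278503 per library) for the count tests.

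Members and lists were chosen with earlier results of these data known. Gene names came from the study's list of expressed genes, and all members, up to 3 genes per pathway list with the largest absolute difference, and genes that a sentence needed were named. The main test was limma 3.58.1 (trend, R 4.3.3) on log2(CPM + 0.5) for genes that reached 0.5 CPM in 4 or more steers, adjusted after Benjamini-Hochberg; this scale understates changes of low genes. Exact two-sided permutation tests used all 126 divisions of the steers (scipy 1.17.1). edgeR 4.0.16 (quasi-likelihood) and DESeq2 1.42.0 on recovered counts, other pseudocounts, filters, scaling, sample weights and omission of steers were alternatives. No source used here names a batch. Labels name the steers as separate animals. RefSeq ARS-UCD2.0, another build than UMD3.1, was used only for gene names, the order of neighbouring genes and 1 overlap of genes, and no coordinates or sequences are printed. Some genes of the pathway lists are not reported here on their own.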

Additional observations from a re-analysis of the deposited data

Results flagged for a closer look

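In 64 sets of values (29 members and 3 pair ratios in each group), a single steer stood far from the rest of its group in 6. About 1 in 20 independent sets would do so by chance, but these sets share the same 9 libraries, so the count of 6 is a description. In NS, PSMB5 was at 32.0 CPM in steer 242 and at 62.2 to 68.4 CPM in the other 3, and PSMB4 was at 120 CPM in the same steer against 98.3 to 99.5 CPM. Steer 242 also had the highest log2 ratio of PSMB8 to PSMB5. PSMB3 was at 53.3 CPM in NS 108 and at 61.8 to 62.7 CPM in the other NS. PSMD12 was at 88.1 CPM in NS 108 and at 73.9 to 75.8 CPM in the other NS. PSMB7 was at 81.6 CPM in NS 152 against 75.2 to 75.5 CPM. In SS, PSMD2 was at 222 CPM in steer 310 and at 145 to 167 CPM in the other 4. The low inducible values of SS 294 did not stand out by this criterion.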

How the results depend on the processing

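No paired analysis was possible because the replicate numbers are the numbers of the steers and NS and SS share none. The count of called members was 0 under every alternative, and the members and the summary values kept their direction under both other pseudocounts and both other filters. PSMD12, above 0 at first, stayed above 0 in all alternatives. After median-of-ratios scaling the log2 difference was also above 0 for PSMA3 (0.083), PSMB5 (0.12), PSMB7 (0.025), PSMC2 (0.076), PSMD1 (0.029) and PSMD7 (0.043). These 6 genes were above 0 with edgeR too (0.087, 0.093, 0.036, 0.054, 0.021 and 0.029) and with DESeq2 (0.11, 0.12, 0.060, 0.080, 0.046 and 0.057). With sample quality weights PSMA3 (0.067), PSMA6 (0.027) and PSMB10 (0.055) were above 0, and 2 members (PSMA7 and PSMB3) had an unadjusted p below 0.05. The inducible minus the constitutive median was then 0.16, against -0.34 before, and -0.19 with edgeR and -0.20 with DESeq2. Over all genes, 19 were called with DESeq2 and 2 with the weights.

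Without steers 274 and 294, besides PSMD12 (0.11), PSMA3 (0.13), PSMA6 (0.048), PSMB4 (0.0013), PSMB5 (0.20), PSMB7 (0.019), PSMB8 (0.059), PSMB9 (0.098), PSMB10 (0.21), PSMC2 (0.016), PSMD1 (0.065), PSME1 (0.062) and PSME2 (0.26) were above 0, as were the ratios PSMB9 to PSMB6 (0.17) and PSMB10 to PSMB7 (0.195), and 16 members were below 0. When single steers were left out, 0 to 7 members had an unadjusted p below 0.05, with 7 without steer 287 (7.68% of all genes tested), 4 without 310 (5.9%) and 0 otherwise, and 0 to 1 of all genes were called. The log2 difference then ran from -0.17 to 0.073 for PSMA3, from -0.28 to 0.084 for PSMB5, and from -0.56 to 0.0059 for the ratio of PSMB10 to PSMB7, whose highest value came without steer 294. The median of the inducible genes ran from -0.81 without steer 310 to -0.25 without 294. The causes were not tested. Depth limits PSMB9 most, with 30 reads in steer 294.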
